A study of Mus musculus with 12 samples.

Results

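Wnt2b, Sema3e, Atrn, Rbms3, Smpx, Frmpd2 and Mcmdc2 each held a single, high-scoring region of sites in an ESRP1 eCLIP of mouse epidermis. Whether these regions are contacts of ESRP1 with the RNA of those genes was not tested. They are 7 of 21887 protein-coding genes in the annotation used. They were chosen by their scores: each has 1 region with sites in all 3 deposited site lists, and all 7 stand among the 10 genes with the highest-scoring region. That they are lone and high is therefore a description, and no test was made of it. The position of the peak nucleotide, the strand and the layout of the sites were not used in the choice. The rest of each gene was used in part, since a second region in all 3 lists would have left the gene out.

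The study mapped RNA contacts of ESRP1 by eCLIP in epidermis from the back skin of pups on postnatal day 1. There were 6 FLAG immunoprecipitates and 6 inputs from biological replicates 1 to 6, and all 12 libraries came from Esrp1FLAG/FLAG animals, so both kinds of library carry the tagged protein. The values are 3 lists of sites, each 1 nt wide with a strand and a score, called by the authors with input. List 1 joins replicates 1 and 2, list 2 joins replicates 3 and 4, and list 3 joins replicates 5 and 6.

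ESRP1 is an RNA-binding protein of epithelial cells that sets alternative splicing, mostly by binding GU-rich stretches near regulated exons. In eCLIP, a protein is crosslinked to its RNA by ultraviolet light, and reverse transcription of the recovered RNA often stops at the crosslinked nucleotide, so that a site names a nucleotide and a strand. A splicing regulator that touches a transcript is read on the strand of the gene, and a site on the other strand is not part of that gene's own transcript.

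The lists held 73602, 40014 and 53864 sites (lists 1, 2 and 3), with median scores of 11.6, 14.7 and 17.7. They carry no read counts, so the depth behind a site is unknown, and the spread between the replicates inside a list cannot be seen. A region here is a run of same-strand sites with gaps of no more than 10 nt, and 9649 regions held sites of all 3 lists. Regions were ranked by the percentile of their best site within each list, averaged over the lists. Among markers of the labelled tissue, 7 of 12 keratinocyte genes had such a region and 10 had a site, while Krt14 and Krt1 had no site. Markers of striated muscle, endothelium and germ cells (6, 4 and 5 genes) had no site in any list. Of 6 melanocyte markers 1 had a region and 3 had a site, and of 6 fibroblast markers none had a region and 2 had a site. Over all protein-coding genes 17.7% had a region and 37.8% had a site, and no test set the markers apart from these shares.

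The choice is easiest to see in the ranking. Wnt2b was 1st among genes, Rbms3 2nd, Smpx 4th, Sema3e 5th, Atrn 6th, Frmpd2 7th and Mcmdc2 9th. The remaining places of the first 10 went to Krt5, a keratin of basal keratinocytes, to Hnrnpa1, a splicing repressor, and to Actr2, a subunit of the actin-branching Arp2/3 complex. Those 3 genes held 7, 7 and 3 regions. Mcmdc2, the last of the 7, had a mean percentile of 99.654. Actr2 stood just outside at 99.651, and Heatr1, the next gene with a lone region, at 99.591. In the annotation 3884 genes (17.7%) had at least 1 region in all 3 lists and 2419 (11.1%) had exactly 1.

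**Figure D1:**
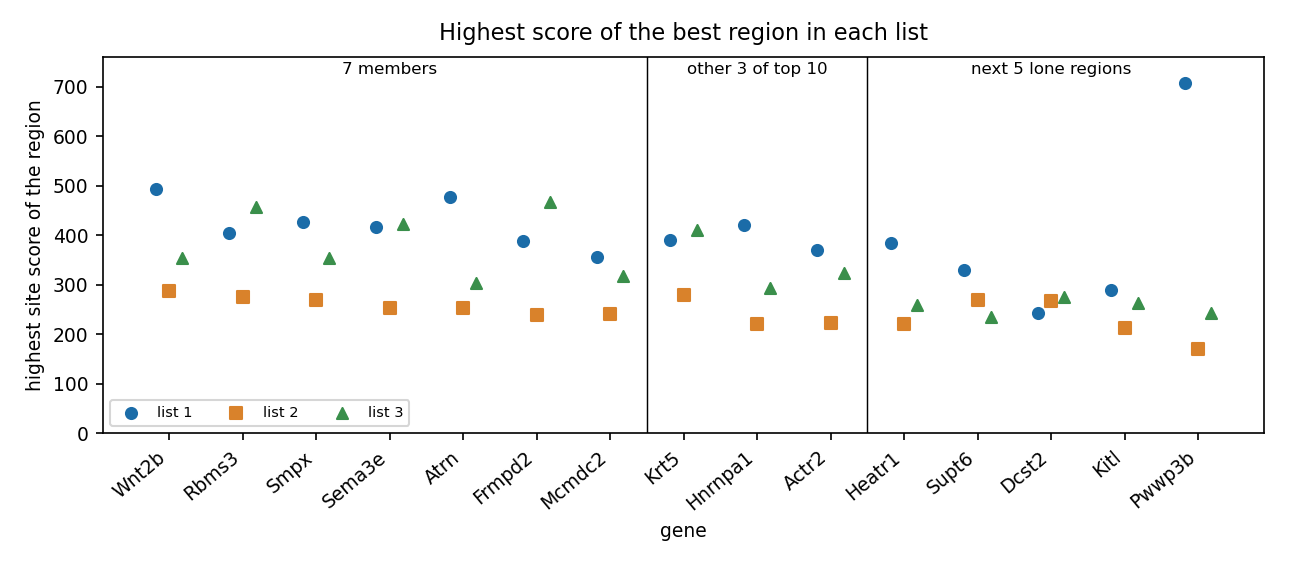
Highest site score of the best region in each list (y axis, the authors' score, no stated scale) for the 7 genes, the other 3 of the 10 highest-ranked genes and the next 5 genes with a lone region. Points are single lists, shifted sideways for visibility. List 2 is the lowest for each of the 7 genes (239 to 288), and Pwwp3b reaches 708 in list 1 alone. The highest score of each of the 3 lists is this same value.

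Wnt2b, Sema3e and Atrn encode signalling proteins. Wnt2b is a secreted Wnt ligand, Sema3e is a secreted semaphorin that signals through plexin D1, and Atrn (attractin) is a transmembrane protein needed for agouti signalling in hair pigmentation. The Wnt2b region lay at chromosome 3, 104957682 to 104957692, on the minus strand (GRCm38). This is the annotated strand of the gene, whose span runs 104944805 to 104961709. Its highest score was 493 in list 1, 288 in list 2 and 355 in list 3. The peak nucleotide was 104957688 in every list, and 6 nt of the region were sites in all 3.

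Inside the Wnt2b region the scores formed a plateau. In list 1, 4 neighbouring nucleotides scored between 492.28 and 492.65, and nucleotides in the 3′ part scored 107 and 86.8 with one of 468 between them. In list 2 the plateau was 3 nt at 288, and in list 3 it was 4 nt at 355. The low pair of list 1 had no equally low counterpart in list 3, where the lowest site of the region scored 320.

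The Sema3e region was only 2 nt, at chromosome 5, 14052375 to 14052376. It lay on the minus strand, opposite to the gene (span 14025276 to 14256689, plus strand). Its higher nucleotide scored 417, 252 and 422 in lists 1, 2 and 3, and its other nucleotide 405, 247 and 409. Both nucleotides were sites in every list, and the same one was the higher each time. Sema3e was 1 of the 2 genes with sites elsewhere: list 1 alone had 3, of which the highest, at 14151173 on the minus strand, scored 63.2.

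The Atrn region covered chromosome 2, 130981544 to 130981551, also on the minus strand and opposite to the gene (span 130906430 to 131030333, plus strand). Its highest score was 478, 252 and 304 in lists 1, 2 and 3. The 6 sites of list 1 stayed within 441 to 478, the 5 of list 2 within 219 to 252 and the 6 of list 3 within 249 to 304. The nucleotide 130981550 was the highest in each list, and no other site lay anywhere in the span.

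Rbms3 encodes a protein that itself binds single-stranded and AU-rich RNA. Its region was 2 nt at chromosome 9, 117232334 to 117232335, on the minus strand, which is the strand of the gene. The higher nucleotide scored 405, 275 and 457 in lists 1, 2 and 3, and the other 393, 270 and 444. The span is the longest of the 7, with 1057168 nt, yet it held only 2 further sites: 1 in list 1 with a score of 3.34 and 1 in list 2, on the other strand, with 7.13.

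Smpx encodes a small protein of striated muscle. Its region was the widest, 17 nt at chromosome X, 157711385 to 157711401, on the minus strand, whereas the gene (157698973 to 157752591) is on the plus strand. Its highest score was 426, 270 and 355 in lists 1, 2 and 3. This was the only one of the 7 whose peak moved between lists, at 157711391, 157711393 and 157711392, a spread of 2 nt. Of 11 other striated muscle genes (such as Acta1, Ckm and Ttn), none had a site in any list on either strand.

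Frmpd2 encodes a scaffold protein with FERM and PDZ domains, and Mcmdc2 an MCM-like protein needed for meiotic recombination. The strand of these genes is not given in the table used, so sense and antisense cannot be told apart for them. The Frmpd2 region, chromosome 14, 33564404 to 33564405, plus strand, scored 387, 239 and 467 at its higher nucleotide in lists 1, 2 and 3, and 376, 235 and 454 at its other. The Mcmdc2 region, chromosome 1, 9909901 to 9909902, plus strand, scored 355, 241 and 318 at its higher nucleotide, and 343, 236 and 304 at its other. Both genes held 2 sites in every list and none outside the region.

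List 2 gave the lowest score for each of the 7 genes, and it also had the lowest 99th percentile of all its sites (179, against 233 in list 1 and 203 in list 3). List 3 was highest for Rbms3, Sema3e and Frmpd2. List 1 was highest for Wnt2b, Smpx, Atrn and Mcmdc2. The order of the 7 genes was therefore not the same in each list, and neighbours in the ranking are not separated beyond the spread between lists.

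The rest of each gene was nearly empty, which the choice of lone regions fixed in part. Of 91 sites that the 3 lists placed in the 7 spans, 5 lay outside the regions, and the share inside was 88.6%, 96.2% and 100% in lists 1, 2 and 3. In 5 of the 7 genes no list had a site outside the region. Of the 2412 other genes with exactly 1 region, 566 (23.5%) had no other site. The median share of a gene's sites inside its lone region was 100% over the 7 genes (lowest 66.7%) and 70% over the others. Gene spans and numbers of sites differ between these sets, so that the shares are given side by side without a test.

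**Figure D2:**
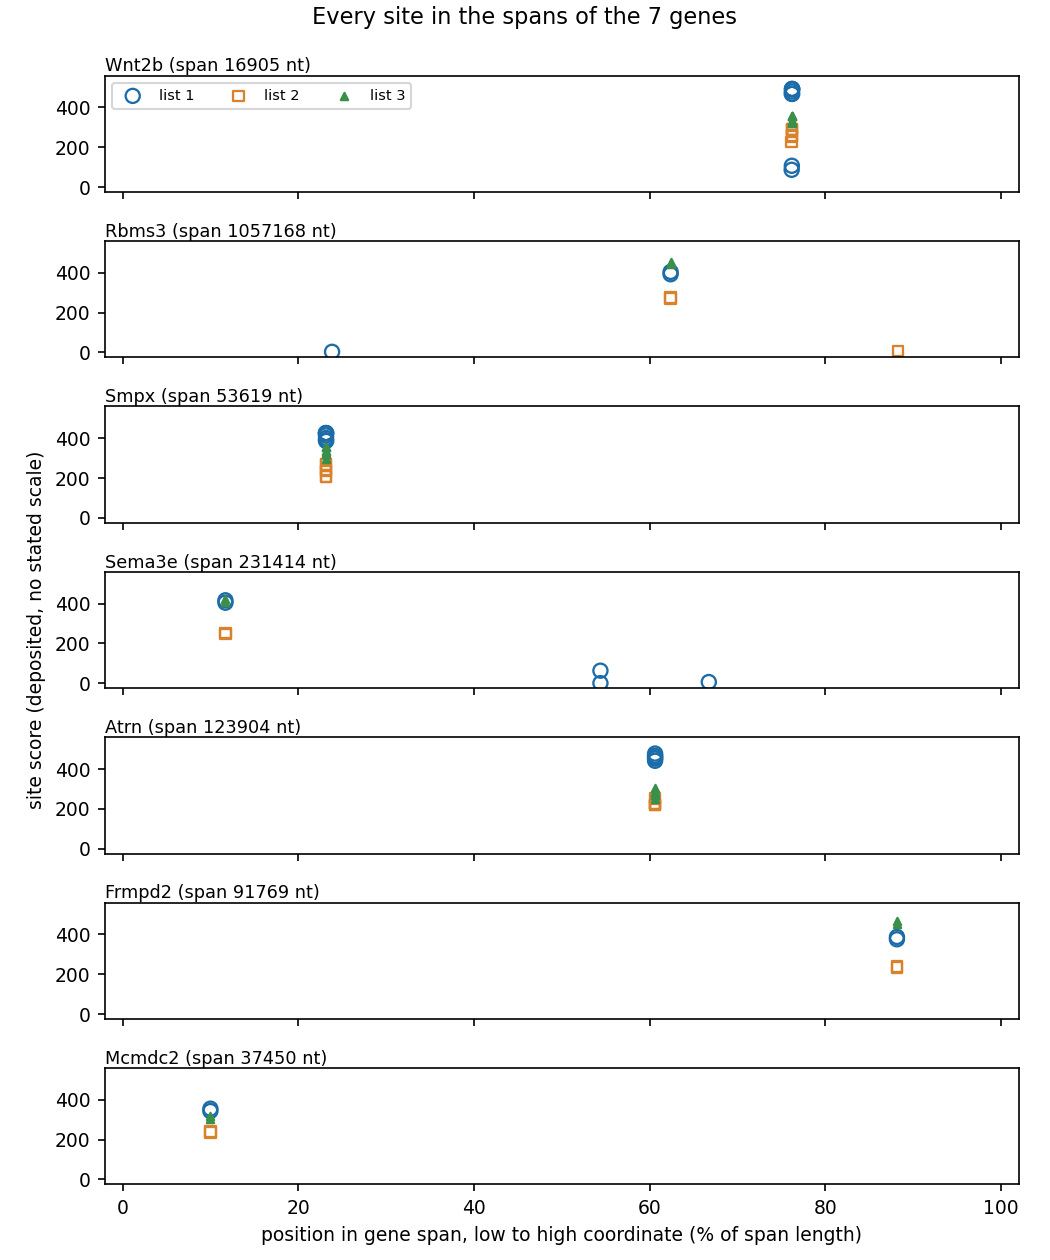
Every site of the 3 lists in the 7 gene spans, by position (x axis, percent of the span from its low coordinate) and score (y axis, the authors' score). Each symbol is 1 site of 1 list, and the sites stack into a single column in each gene, with 2 low sites elsewhere in Rbms3 and 3 in Sema3e, the highest of which scores 63.2.

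The surroundings of the regions were empty too. No other site of any list lay within 10000 nt on either strand for any of the 7, while 2488 of all 9649 regions (25.8%) were isolated in this way. For Rbms3, Smpx, Sema3e, Atrn and Frmpd2 this window lay inside the gene, so it repeats the emptiness that the choice fixed in part. It reached beyond the span only for Wnt2b, 4017 nt from its high end, and for Mcmdc2. No other annotated span covered any of the 7 regions. They lay at no fixed place in their genes: Mcmdc2 was 3744 nt from the low end of a 37450 nt span, Sema3e 11.7% of the span from its low coordinate, Smpx 23.2%, Atrn 60.6%, Rbms3 62.4%, Wnt2b 76.2% and Frmpd2 88.2%.

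Of the 5 genes with a given strand, 3 regions lay antisense (Smpx, Sema3e and Atrn) and 2 sense (Wnt2b and Rbms3). Over all regions in a single protein-coding span of given strand, 458 of 5126 (8.93%) were antisense. Among other genes with a lone region it was 244 of 1935 (12.6%), and among the 100 highest-ranked regions with the 7 left out it was 9 of 31 (29%). These counts keep regions that also lie under a span of another kind, such as a pseudogene, whereas the 7 had no other span. The antisense share was thus higher among the 100 highest-ranked regions than over all regions. This was the only cut by rank that was counted, and it was not tested. The 5 genes are too few to set apart from the last of these figures.

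The peak nucleotide was the same in all 3 lists for 6 of the 7 genes. It was the same for 3417 of all 9649 regions (35.4%) and for 1577 of 5338 regions with at least 2 sites in each list (29.5%). For the 4 regions of 2 nt, a shared peak needs only the same choice between 2 nucleotides in each list.

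The scores were searched for exact repeats. A repeat was a whole run of at least 3 sites whose scores and spacing were all equal to those of another run of the same list, on either strand. A match over only part of a run was not counted. None of Wnt2b, Smpx and Atrn, which have enough sites, had one in any list. The same search found a repeat for 20 of 6620 regions in list 1 (0.302%), 4 of 2909 in list 2 (0.138%) and 17 of 5919 in list 3 (0.287%). With whole runs of at least 2 sites all 7 genes could be searched, and again none had a repeat. That search found one for 26 of 8305 regions in list 1 (0.313%), 11 of 5639 in list 2 (0.195%) and 23 of 7970 in list 3 (0.289%). Parts of runs were searched only for exact scores, as any 2 consecutive sites with equal scores and spacing. None of the 7 genes had such a pair elsewhere, against 0.397%, 0.231% and 0.414% of the same regions. With shares this low, the lack of a repeat does not set the 7 genes apart.

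No series of scores was repeated exactly, but the layout of sites recurred. A second measure, chosen after the data were seen, placed pairs of regions on a common 5′ to 3′ register and required, in every list, at least 4 shared nucleotides with a gap among them, at least 50% of nucleotides shared, and a median difference of at most 1 score unit after each region was set to its own maximum. By this measure all 3 wide regions had a partner elsewhere. Of the 1103 regions with at least 4 sites in each list, 26 (2.36%) had one. The layout without the profile was unspecific, recurring for 765 of them (69.4%).

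The Wnt2b region matched, in layout and profile together, the regions ranked 1, 2 and 3 of all 9649. These lay at chromosome 8, 42957946 to 42957956 (minus strand), chromosome 6, 60885295 to 60885305 (plus strand), and chromosome 3, 128930771 to 128930781 (plus strand), all under no annotated span. Their highest scores in lists 1, 2 and 3 were 594, 282 and 375 for rank 1, 528, 301 and 359 for rank 2, and 541, 275 and 387 for rank 3. All 9 sites of Wnt2b in list 1, all 6 in list 2 and all 8 in list 3 had a site at the same place of each partner. In list 3 the profile of Wnt2b differed from that of rank 1 by at most 0.039 score units at any nucleotide, although their highest scores were 355 and 375. In list 1 the largest difference was 95.8 to 151 over the 3 partners, and in list 2 it was 19.4 to 63.2, while the median differences stayed at 0.333 or less. By layout alone, Wnt2b also matched Atrn and the regions ranked 9, 13, 16, 18 and 21.

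Smpx was the second gene of this group. It shared 7, 5 and 7 nt with Wnt2b in lists 1, 2 and 3, with median profile differences of 0.218, 0.149 and 0.108, and the largest difference was 33.9 in list 3. In list 3 the scores themselves were close too: at 6 of the 7 shared nucleotides Smpx and Wnt2b differed by at most 0.399 score units. In lists 1 and 2 no shared nucleotide was within 1 unit. Smpx also matched ranks 1, 2 and 3. Its 5′-most site, 6 nt upstream of the place of the 5′ nucleotide of Wnt2b, had no counterpart in the others.

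The Atrn region had other partners. It matched the region ranked 9 (chromosome 13, 60263073 to 60263080, minus strand) and the one ranked 18 (chromosome 1, 7417241 to 7417248, minus strand), both under no annotated span. With rank 9 all 6, 5 and 6 sites coincided, and no nucleotide differed by more than 0.538, 0.108 and 0.185 score units in lists 1, 2 and 3. Rank 18 departed at its last nucleotide, by 425 in list 1 and 70.8 in list 3. In list 2 it had no site there and departed by 28.4 at the nucleotide before. In list 1 that nucleotide lay 31.7 below the maximum in rank 18, against 23.9 in Atrn. Atrn and Wnt2b matched in layout but not in profile, with median differences of 12.3, 14.2 and 0.013. Single drops below the maximum recurred in both genes all the same. In list 3, drops of 21.0 and 34.4 score units occurred in Wnt2b and in Atrn. A small difference at a single nucleotide is therefore not particular to a pair of partners.

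**Figure D3:**
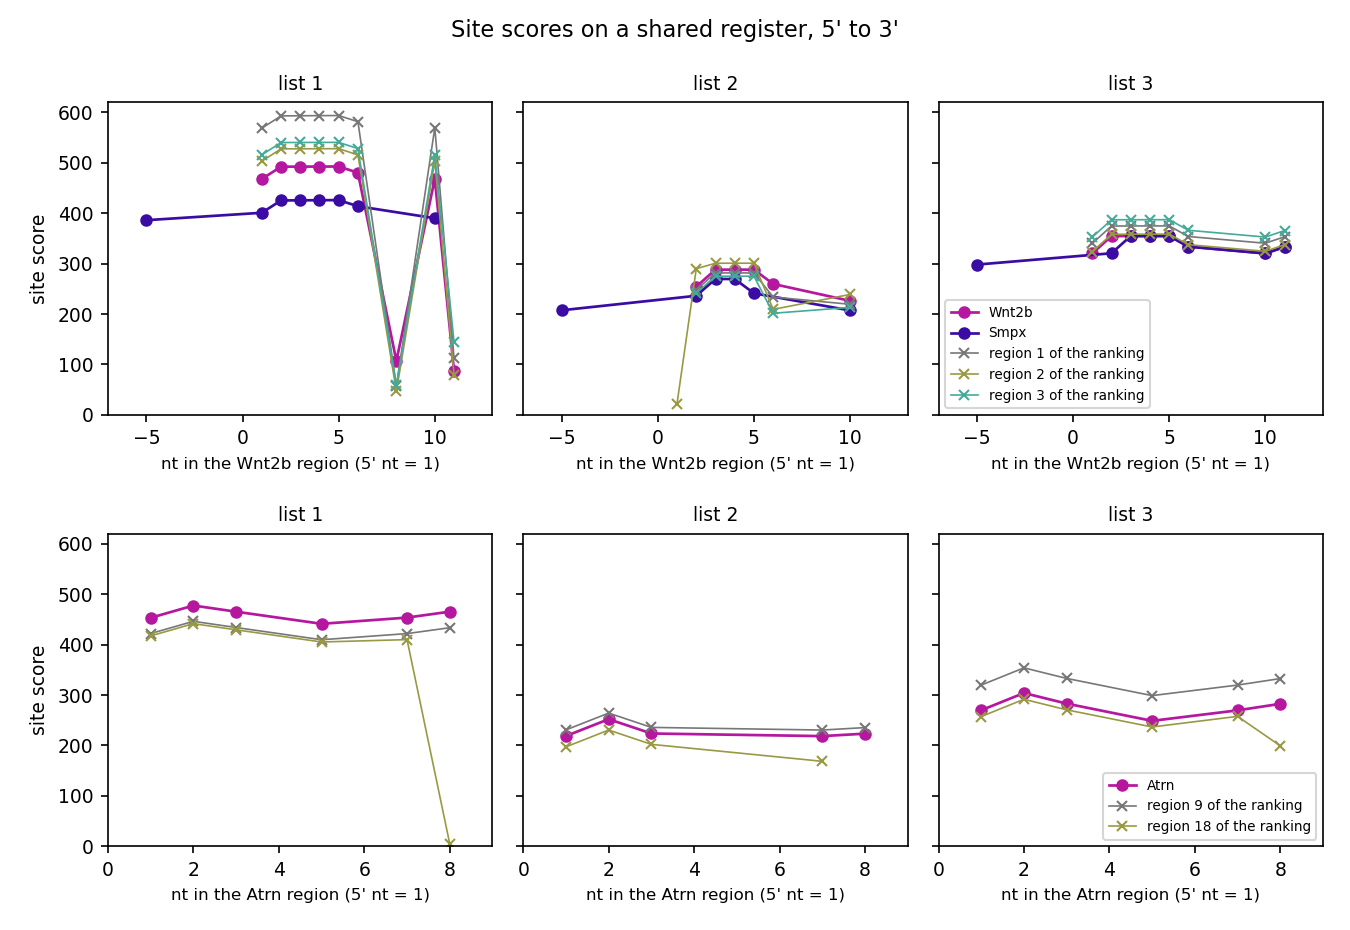
Site scores (y axis, the authors' score) along the shared register (x axis, nucleotides from the 5′ nucleotide of the Wnt2b region above and of the Atrn region below), 1 column per list. Filled circles are Wnt2b, Smpx and Atrn, crosses are regions outside annotated genes, and lines join neighbouring sites. The curves of Wnt2b and ranks 1 to 3 run nearly parallel in list 3, with maxima of 355 to 387, and that of Atrn runs parallel to rank 9.

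The 2 groups together hold 8 regions: Wnt2b, Smpx and Atrn, and 5 outside any annotated span. All 8 were ranked 18 or better. All 5 of those outside genes were isolated within 10000 nt, as the 7 genes were. Down to Mcmdc2 (rank 23), 12 of the 16 regions outside the 7 genes were isolated, these 5 included. Of all 23 regions down to Mcmdc2, 12 (52.2%) lay under no annotated span, whereas over all 9649 regions 19.1% did. Whether the 8 regions share sequence was not tested, since no genome sequence was used here.

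The other 4 regions, in Rbms3, Sema3e, Frmpd2 and Mcmdc2, were each made of the same 2 adjacent nucleotides in every list. This layout occurred at 164 of the 9649 regions (1.7%), and ranked among these 164 the 4 genes took places 1, 3, 4 and 5. Place 2 was the region ranked 6 of all, at chromosome 1, 112644336 to 112644337, minus strand, under no annotated span, with 418, 252 and 540 in lists 1, 2 and 3. Place 6 was much lower in the ranking, at 113 of all regions, with 278, 160 and 252.

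In all 4 genes the 3′ nucleotide scored higher than the 5′ one in every list, which held for 51 of the 164 pairs (31.1%). It also held for the pairs at places 2, 6 and 7, though not at place 8, and so was not particular to the 4 genes. The step was 11.8 to 11.9 score units in list 1, 4.97 to 4.99 in list 2 and 13.02 to 13.49 in list 3, although the higher scores ran from 355 to 417 in list 1, 239 to 275 in list 2 and 318 to 467 in list 3. Steps within 1 unit of the median over the 4 genes in every list were found at 20 of the 164 pairs (12.2%), so at 16 of the 160 others, ranked from 6 to 661. The upper quartile of the step over the other pairs was 11.8, 5.02 and 13.02 in lists 1, 2 and 3. The size of the step was therefore a common one in each list and not particular to these genes.

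**Figure D4:**
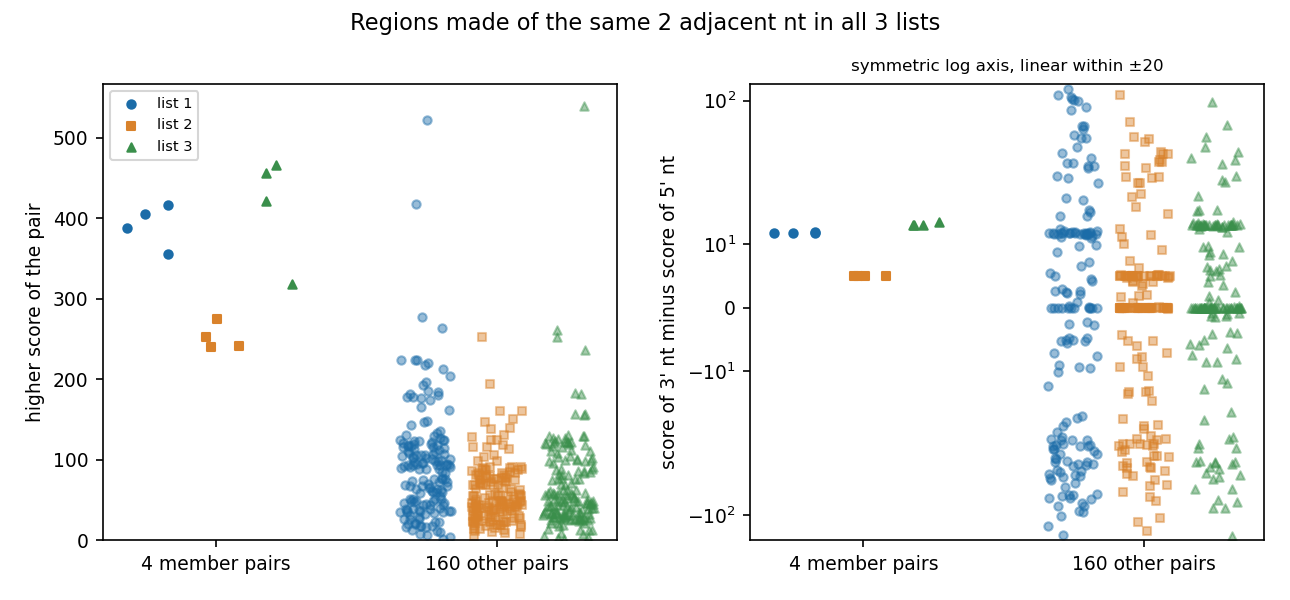
Regions made of the same 2 adjacent nucleotides in all lists, 4 in the genes described and 160 others. Left, the higher score of the pair (y axis, the authors' score); right, the score of the 3′ nucleotide minus that of the 5′ one (y axis, symmetric log scale). Each point is 1 region in 1 list, shifted sideways for visibility; the 4 genes lie high on the left and at the steps of 11.8, 4.98 and 13.1 on the right, where many others lie too.

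The 5 next lone genes give the neighbourhood of the choice. Heatr1 (ribosome biogenesis), Kitl (the ligand of the KIT receptor of melanocytes and mast cells) and Pwwp3b had their region antisense, and Supt6 (a transcription elongation factor) and Dcst2 (a sperm membrane protein) had it sense. The 7 genes had highest scores of 355 to 493 in list 1, 239 to 288 in list 2 and 304 to 467 in list 3, against 244 to 708, 171 to 269 and 234 to 274 in these 5. The ranges overlap in lists 1 and 2. The 708, of Pwwp3b, equals the highest score of every list. Kitl and Pwwp3b had no site elsewhere, while Heatr1 had 2, Dcst2 had 3 and Supt6 had 17. Heatr1's region also lay under a pseudogene, Gm5928.

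Relatives of the 7 genes were counted in the same way. That most score below the 7 follows from the choice of the 7 by score. Of 61 family and pathway genes other than the 7 themselves, 13 had a region in all 3 lists and 27 had a site. Over all protein-coding genes, the 17.7% given above had a region and 8266 (37.8%) had a site, and no test set the family genes apart from these shares. The family list was drawn up with earlier results of these data known.

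Beside Wnt2b, with 493, 288 and 355, Wnt4, Wnt7a, Wnt7b and Wnt16 had a region, of 18 other Wnt ligands. The best of these regions by mean percentile, antisense in Wnt4, reached 126, 70.9 and 35.1 in lists 1, 2 and 3. Wnt5b had 4, 8 and 6 sites reaching 99.5, 118 and 87.5, above Wnt4 in lists 2 and 3, but no region in all 3 lists was assigned to it. Wnt7a, a ligand of the epidermis, reached 25.8, 23.1 and 26.7, and Wnt16 30.3, 20.02 and 15.3, both on the strand of the gene.

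Rbms3 had 3, 3 and 2 sites in lists 1, 2 and 3, with highest scores of 405, 275 and 457. Its relative Rbms1 had 29, 20 and 19 sites, which made 4 regions in all 3 lists, each on the strand of the gene. The best of these scored 74.3, 48.0 and 44.3. Rbms3 thus had 1 high pair where Rbms1 had many lower sites along its span. Rbms2 had 2 sites in list 1 and no region.

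Of 13 other class 3 semaphorins and receptors, Sema3c, Sema3d, Sema3f and Plxna1 had a region. Sema3c was the highest by mean percentile, with 193, 145 and 85.2 in lists 1, 2 and 3 on the antisense strand. Sema3f, whose strand is not given, had 65.5, 110 and 97.01 at its best region, above Sema3c in list 3. Sema3d reached 31.5, 19.0 and 40.4 on the strand of the gene. Plxnd1, the plexin through which Sema3e signals, had no site.

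In the attractin group, Atrnl1, the attractin-like paralog, had 3 regions on the strand of the gene, with 51.8, 43.1 and 46.4 at the best in lists 1, 2 and 3. Mgrn1, the ubiquitin ligase mahogunin, had 4 sites in list 1 and 4 in list 3 but no region, and Mc1r and Asip, the melanocortin receptor and the agouti protein, had no site. Of 10 other MCM genes Mcm4 alone had a region, at 30.3, 52.8 and 31.8.

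Frmpd3 came closest to the 7 genes among their relatives by mean percentile, and in list 3 it scored above Mcmdc2 and Atrn. Its only region was antisense and 4 nt wide, at chromosome X, 140434776 to 140434779, and it was ranked 171 of all regions. Frmpd2 scored 387, 239 and 467 in lists 1, 2 and 3, against 367, 107 and 354 for Frmpd3, so that the difference was widest in list 2. Frmpd4 had an antisense region with 78.2, 52.2 and 39.3.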

How the data were processed

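Each site's score is the authors' value, deposited in column 5 of 3 lists without a stated scale. Per the file headers, calling used the input, and each list joins 2 replicates. Tools named in the submitters' processing notes, with no role given, are HISAT2 2.1.0, cutadapt 1.16 and HOMER, and the builds are mm10 and GRCm38. How reads with several alignments were treated is not stated there. Coordinates are 1-based on GRCm38.

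Gene spans came from RefSeq's GRCm38.p6 table and gene strands from its promoter table. Same-strand sites of any list with gaps of no more than 10 nt were joined. A region belonged to a gene when its middle lay in that protein-coding span and in no other protein-coding span. Spans of other kinds were allowed. Scores were compared within a list or as percentiles. Python 3.11.15, pandas 2.3.3 and numpy 2.4.6 were used. The searches for repeats and layouts were tried on data with scores permuted among sites and whole regions copied. That trial could not measure wrong calls on the real scores, nor whether partial repeats are found.

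The 7 genes and the lists were chosen with earlier results of these data known. Other named genes are the rest of the 10 highest-ranked, the next 5 lone genes, and family genes with a region. Krt14, Krt1, Wnt5b, Rbms2, Plxnd1, Mgrn1, Mc1r, Asip, Acta1, Ckm and Ttn, and the tRNA genes, were named after their values were seen. No test was made, since scores chose the genes.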

Additional observations from a re-analysis of the deposited data

How the results depend on the processing

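Of 32 alternatives to the joining distance, lists, strand, span, score tolerance, peak tolerance, repeat search and layout measure, 31 left the value within the limits used. These values cover the 7 genes and also the count of family genes. The limits were wide: 18 family genes against 13 passed, and a share could move by up to its SD over the lists, 5.82 percentage points. Some outcomes were fixed in advance, such as a wider peak tolerance or a repeat search on the same strand only. The search with scores equal within 1% compared whole runs only. It could not find the likeness of Smpx and Wnt2b in list 3, whose scores were close at 6 of 7 shared nucleotides. When sites were joined only within 1 nt, 4 of the 7 genes still had exactly 1 region, since Wnt2b then had 2, Smpx 3 and Atrn 2; fewer sites join by construction. With 1 list left out, the share of sites inside the regions was 91.8 to 98.2%, the number of genes with a shared peak nucleotide stayed at 6, and 14 to 18 of the 61 family genes had a region, against 13. The layout measure and its settings were chosen after seeing the data. Its share over the 1103 regions with at least 4 sites in each list ranged from 2.27% to 12.1%. It found partners for all 3 wide regions at each setting, but the looser settings could not lose a partner. The only stricter one asked for at least 70% of nucleotides shared, and Smpx met it with exactly 70% in list 1. No paired analysis was possible because each list used here pools 2 replicates and has no column for a single library or input, and no test was made. Read depth is unknown, so no counting interval can be given.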

Other observations

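When an unbroken run of shared nucleotides was enough for a match, the Wnt2b region matched 18 further regions and the Smpx region 21, while the Atrn region matched none. Of these, 16 for Wnt2b and 17 for Smpx lay in tRNA genes, and 15 and 17 of them were n-TCgca genes, which encode cysteine tRNAs. Of the 1103 regions compared, 22 were of n-TCgca genes. The share of the 1103 in tRNA genes of every kind is not given here, so the counts of 16 and 17 have no background beside them. The highest score in list 1 was 493 in Wnt2b, against 172 to 231 in the n-TCgca regions matching it. A run match without a gap is a weaker condition, met by 70 of the 1103 regions compared (6.35%), and whether these places share sequence was not tested.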
